A study of Mus musculus with 672 samples.

Results

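Flt3, Kit, Csf1r, Csf3r, Csf2ra and Csf2rb, the 6 genes for the receptors of FLT3 ligand, stem cell factor, macrophage colony-stimulating factor, granulocyte colony-stimulating factor (G-CSF) and granulocyte-macrophage colony-stimulating factor (GM-CSF), were followed by name through 3 early lymphoid populations of mouse bone marrow. The table lists 46078 genes, and all 6 were among the 19903 that passed a filter on low counts. Cells came from 4 mice aged 7 weeks on a C57BL6/129Ola background. Mice 18217 and 18219 were Mbd3 null (Mbd3del/del) and mice 18218 and 18220 were controls with floxed alleles (Mbd3flox/flox). Mbd3 encodes a subunit of the NuRD chromatin complex. The sources used here do not name what drove the deletion. The populations were the LMPP (lymphoid-primed multipotent progenitor), the ALP (all-lymphoid progenitor) and the BLP, a lymphoid progenitor biased to the B lineage. Sorted single cells were sequenced by the full-length Smart-seq2 protocol. Every gate required c-Kit and high Flt3 protein, so the proteins of 2 of the 6 genes were part of the sort in all cells. The gates differed by IL-7 receptor (absent from LMPPs, present on ALPs and BLPs) and by Ly6D (present on BLPs).

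Flt3, Kit and the receptor encoded by Csf1r are receptor tyrosine kinases, in which the ligand joins a pair of receptor chains that then phosphorylate each other. The products of Csf3r, Csf2ra and Csf2rb are cytokine receptors without a kinase of their own, and they signal through bound JAK kinases to STAT factors. Flt3 is known for the support of lymphoid and dendritic cell progenitors, Kit for that of stem cells and early progenitors, and the colony-stimulating factor receptors for the formation of granulocytes and macrophages.

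Of 672 sorted cells, 561 passed the filters. Summed per mouse and population they gave 12 libraries of 53741264 to 137497554 gene counts, and levels are in CPM, counts scaled to a common library sum. The median cell was shallower in null libraries (1004760 to 1285444 nuclear gene counts) than in control libraries (1586214.5 to 2340592). In ALP, 79 and 42 of 84 cells were kept from the null mice and 74 and 40 from the control mice. Mbd3 itself stood at 0.189 to 24.7 CPM in null libraries and 48.1 to 191 CPM in control libraries, without overlap; a single cell gave 98.3% of the reads of the highest null library. Gate genes followed the sort. Il7r, the IL-7 receptor chain, stood at 3.72 to 26.7 CPM in LMPPs, 546 to 874 in ALPs and 591 to 909 in BLPs, and Ly6d at 2.05 to 4.28, 36.2 to 133 and 1501 to 3749 CPM. With 2 mice per genotype, p-values measure the spread between these mice.

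Kit (chromosome 5, 75574916 to 75656722, plus strand, build GRCm38) and Csf3r (chromosome 4, 126024550 to 126044440, plus strand) were the members that fell between gates, while Flt3 (chromosome 5, 147330741 to 147400489, minus strand) stayed the highest of the 6. The 250 bases before the first RefSeq start of each (GRCm38.p6) are shown to set the pair called between gates beside the highest member, which was not called. Capitals mark GAGGAA, a core bound by PU.1 and other ETS factors, and lie 223 bases before the RefSeq start in Kit and 86 in Csf3r. That start lies 71 bases inside the GENCODE gene in Kit and 109 bases inside it in Csf3r, so the marked stretch of Csf3r is within the annotated gene. In Flt3 both starts are the same. The windows are chr5:75574737-75574986 on the plus strand for Kit, chr4:126024409-126024658 on the plus strand for Csf3r and chr5:147400490-147400739 on the minus strand for Flt3.
Kit: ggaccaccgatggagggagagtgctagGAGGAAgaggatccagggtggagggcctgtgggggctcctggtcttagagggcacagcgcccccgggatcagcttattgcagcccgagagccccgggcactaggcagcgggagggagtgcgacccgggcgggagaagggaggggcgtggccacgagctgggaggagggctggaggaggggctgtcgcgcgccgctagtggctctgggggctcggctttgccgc
Csf3r: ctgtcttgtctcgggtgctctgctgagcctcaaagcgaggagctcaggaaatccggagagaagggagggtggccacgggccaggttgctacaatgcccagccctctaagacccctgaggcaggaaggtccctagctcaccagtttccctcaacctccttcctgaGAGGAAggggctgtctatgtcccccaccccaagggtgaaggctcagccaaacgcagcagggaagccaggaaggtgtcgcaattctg
Flt3: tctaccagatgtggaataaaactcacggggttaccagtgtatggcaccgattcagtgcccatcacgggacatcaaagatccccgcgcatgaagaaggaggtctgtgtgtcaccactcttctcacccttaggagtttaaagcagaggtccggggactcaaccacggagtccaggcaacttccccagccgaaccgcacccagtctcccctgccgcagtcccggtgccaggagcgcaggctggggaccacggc
The letters GAGGAA, searched on both strands, occur in 23.3% of 32851 promoter windows of the same length. Their shorter part GGAA also lies, unmarked, in the windows of Csf3r and Flt3. TGTGGT (RUNX, 14.0% of windows), TTGCNNAA (C/EBP, 9.56%) and, for GATA factors, the letters AGATAA (9.99%) were not found in the 3 windows. The same window of Csf2ra holds GAGGAA in tandem, 14 and 8 bases before its RefSeq start. A match is a description of the letters and not of a bound factor.

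Per kilobase of all annotated exons of a gene merged, Flt3 was the highest of the 6 genes in every library. Its level was 144 ± 21.3 CPM per kilobase in LMPPs, 147 ± 17.8 in ALPs and 119 ± 22.7 in BLPs (SD, n = 4 mice), and no other member reached its range. In LMPPs it was followed by Kit (51.1 ± 9.55) and Csf3r (38.8 ± 8.4), whose ranges overlapped, then by Csf2ra (16.2 ± 7.66), Csf2rb (6.46 ± 3.01) and Csf1r (2.70 ± 2.19), each overlapping the next. In ALPs Csf2ra (19.2 ± 2.51) came before Kit (13.0 ± 4.05) without overlap, and Csf3r (6.33 ± 4.02), Csf2rb (3.04 ± 1.18) and Csf1r (1.95 ± 1.17) followed with overlapping neighbours. In BLPs Csf2ra (16.1 ± 7.81), Kit (12.6 ± 2.18) and Csf2rb (7.56 ± 2.57) overlapped in turn, and Csf1r (0.974 ± 0.908) and Csf3r (0.953 ± 1.42) stood at the bottom with overlap between them. The order of Csf2ra and Kit depended on the length used. Per kilobase of the longest transcript, Csf2ra was 24.2 ± 3.16 and Kit 22.1 ± 6.89 in ALPs, closer than their spread. In BLPs Kit (21.5 ± 3.71) then came before Csf2ra (20.3 ± 9.84).

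**Figure D1:**
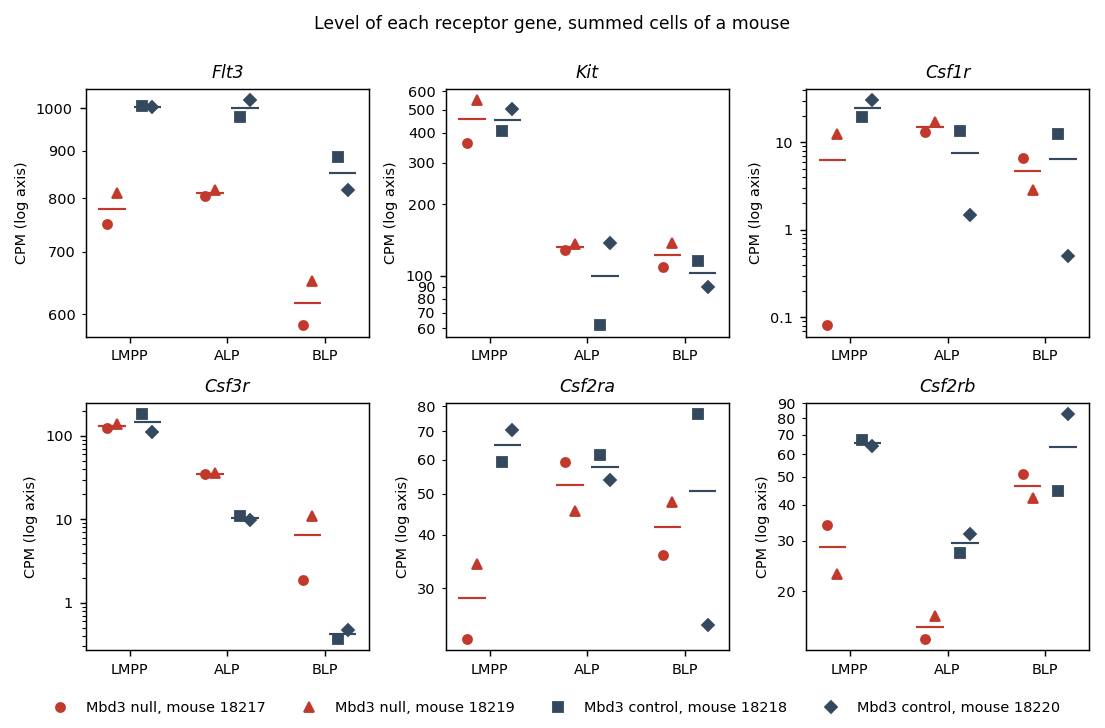
Level of each of the 6 receptor genes in CPM on a log axis whose range differs by panel, for LMPP, ALP and BLP. Each point is the summed cells of 1 mouse, red for Mbd3 null and dark blue for control, and a short line marks the mean of 2 mice. Null points lie below control points for Flt3 in all 3 populations, and Kit and Csf3r are highest in LMPP.

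Kit, the stem cell factor receptor, was lower in both later populations than in LMPPs. Its level in ALPs was 128 and 136 CPM in null mice and 61.9 and 137 CPM in control mice. In BLPs it was 109 and 137 CPM in null mice and 115 and 89.7 CPM in control mice. In LMPPs it was 364 and 549 CPM in null mice and 406 and 503 CPM in control mice, all above every ALP and BLP library. Averaged over genotypes, Kit fell 3.98-fold in ALP relative to LMPP (log2 fold change −1.99 ± 0.26 approximate SE, adjusted p = 0.0116 by edgeR's quasi-likelihood test with Benjamini-Hochberg adjustment), and 4.07-fold in BLP relative to LMPP (−2.02 ± 0.27, adjusted p = 0.00524). BLP against ALP gave −0.03 ± 0.26 (adjusted p = 0.999). Within genotypes, the change of BLP over LMPP was −1.89 in null mice (adjusted p = 0.0577) and −2.15 in control mice (adjusted p = 0.0440, and 0.0784 with the mouse as a replicate block). That of ALP over LMPP was −1.79 in null mice (adjusted p = 0.152) and −2.19 in control mice (adjusted p = 0.0761). The difference between genotypes in the change from LMPP was 0.40 ± 0.51 for ALP (adjusted p = 1) and 0.26 ± 0.51 for BLP (adjusted p = 1).

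Csf3r, the G-CSF receptor of granulocyte precursors, fell further. In ALPs it stood at 35.1 and 35.7 CPM in null mice and at 10.9 and 9.70 CPM in control mice. In BLPs it stood at 1.87 and 11.0 CPM in null mice and at 0.368 and 0.468 CPM in control mice, the last from 30 and 49 reads. In LMPPs it stood at 125 and 140 CPM in null mice and at 182 and 112 CPM in control mice, so the 3 populations did not overlap within either genotype. Csf3r fell 7.32-fold in ALP relative to LMPP (log2 fold change −2.87 ± 0.49, adjusted p = 0.0330) and 84.8-fold in BLP relative to LMPP (−6.41 ± 0.58, adjusted p = 0.000967), by edgeR. With every cell brought to equal counts, the change in BLP relative to LMPP was −5.12 (adjusted p = 1.31e-05). BLP against ALP gave −3.53 ± 0.51 and did not pass (adjusted p = 0.116).

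These 2 genes were the 2 of 6 called in ALP relative to LMPP, where 1.09% of all tested genes were called, and again the 2 of 6 called in BLP relative to LMPP, where 4.71% were called. None of the 6 was called in BLP relative to ALP (0.0402% of genes called). That comparison had 1930 genes at an unadjusted p under 0.05, among them Csf3r, Flt3 and Csf2rb. Without any 1 of the 4 mice, neither gene was called in ALP relative to LMPP (adjusted p = 0.0732 to 0.278 for Kit and 0.0789 to 0.361 for Csf3r). In BLP relative to LMPP, Csf3r was not called without mouse 18218 or 18220 (adjusted p = 0.0597 and 0.0614), and Kit not without 18217, 18219 or 18220 (0.101, 0.109 and 0.0526). With the mouse as a replicate block, Csf3r in ALP relative to LMPP had an adjusted p of 0.0650 and Kit one of 0.0275. Without the ALP libraries of mice 18219 and 18220, which lost most cells, Csf3r had 0.357 and Kit 0.0330.

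**Figure D2:**
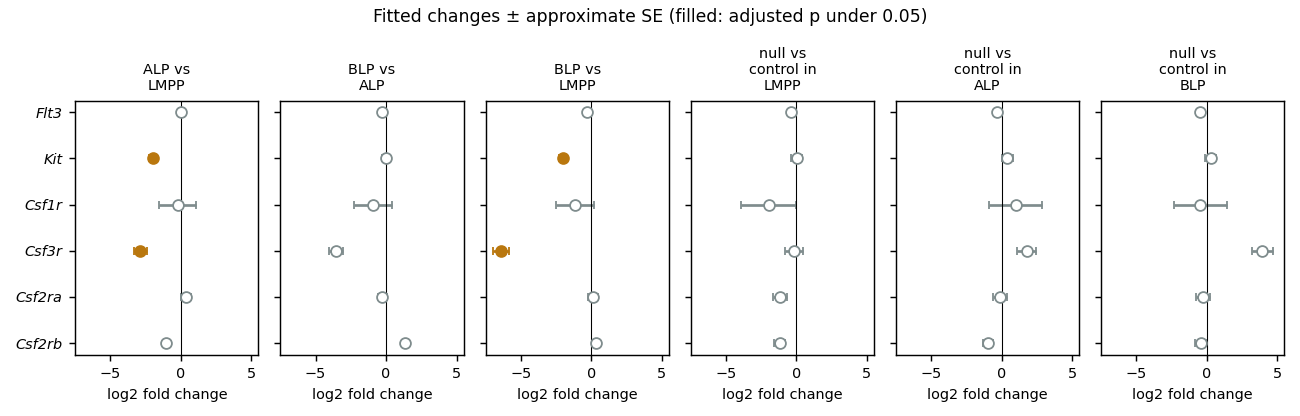
Log2 fold change ± approximate SE of the 6 receptor genes in 6 comparisons, each of the first-named group over the second. Filled points passed an adjusted p of 0.05 by edgeR's quasi-likelihood test, which was reached by Kit and Csf3r in ALP and in BLP, each relative to LMPP.

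Sums over cells do not show whether fewer cells carried a transcript or each cell carried less, so cells were also counted after every cell had been thinned to 50000 nuclear gene counts. In ALPs Kit was read in 58 of 79 and 27 of 42 cells of null mice and in 40 of 74 and 20 of 40 cells of control mice. In BLPs it was read in 20 of 36 and 21 of 35 cells of null mice and in 20 of 34 and 16 of 35 cells of control mice. In LMPPs it was read in 42 of 45 and 42 of 47 cells of null mice and in 46 of 47 and 44 of 47 cells of control mice. The share of cells fell short of the LMPP share by 33.1 points in ALP and by 38.5 points in BLP, in the same direction in 4 of 4 mice (exact permutation p = 0.125, the smallest that 4 pairs allow). Among cells with at least 10 Kit reads, the median level was 73.2 to 194 CPM in ALP libraries, 186 to 228 in BLP libraries and 270 to 472 in LMPP libraries. Both the share at equal depth and the level of the cells with reads were lower in the later gates, and these cells had all been sorted as c-Kit positive. Without thinning, Kit was read in 78 of 79 and 42 of 42 null ALPs and in 66 of 74 and 34 of 40 control ALPs. In BLPs it was 34 of 36 and 34 of 35 in null mice and 34 of 34 and 33 of 35 in control mice. Il7r, too, was read in 40 to 46 cells of each LMPP library, sorted without its protein. It reached 10 reads in only 1 to 13 of these. Kit reached 10 reads in 57 of 79 and 25 of 42 null ALPs and 40 of 74 and 20 of 40 control ALPs. For BLPs this was 19 of 36 and 19 of 35 in null mice and 19 of 34 and 15 of 35 in control mice. For LMPPs it was 42 of 45 and 40 of 47 in null mice and 45 of 47 in each control mouse. A lower level per cell also lowers the share at equal depth, so that share does not separate fewer cells from less per cell.

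Csf3r was read in 20 of 79 and 9 of 42 null ALPs and in 9 of 74 and 3 of 40 control ALPs. In BLPs it was read in 4 of 36 and 3 of 35 cells of null mice and in 3 of 34 and 2 of 35 cells of control mice. In LMPPs it was read in 28 of 45 and 24 of 47 cells of null mice and in 36 of 47 and 22 of 47 cells of control mice. The share was 42.6 points lower in ALP and 50.6 points lower in BLP than in LMPP, in 4 of 4 mice each (exact p = 0.125). Most of the Csf3r reads of null BLPs came from 1 cell per mouse, with 78.0% of reads in mouse 18217 and 75.5% in mouse 18219. The median cell of an LMPP library held 3.72 to 123 CPM of Csf3r, with the 90th percentile at 337 to 434 CPM, so that even in LMPPs a fraction of cells carried most of the signal.

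**Figure D3:**
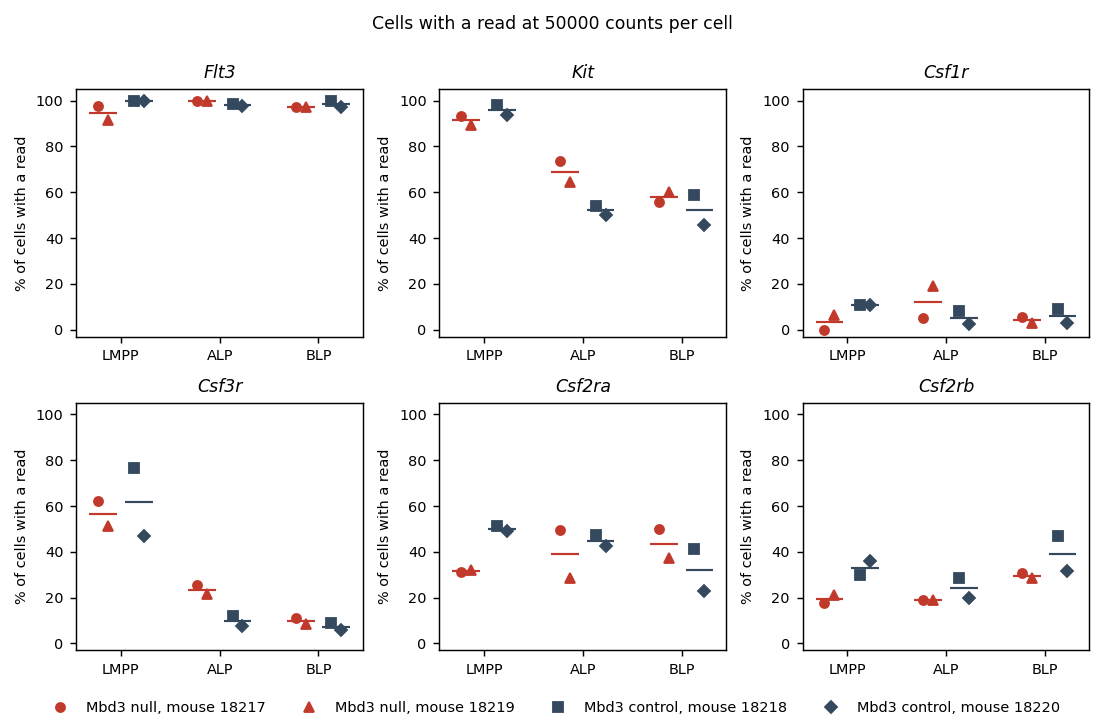
Percent of cells with at least 1 read of each receptor gene after thinning to 50000 nuclear gene counts per cell, for LMPP, ALP and BLP. Each point is 1 mouse, red for Mbd3 null and dark blue for control, and lines mark means. Flt3 was read in 91.5% to 100% of cells of every library, while the shares for Kit and Csf3r are lower in ALP and BLP than in LMPP.

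Flt3 was read in nearly all cells. It was found in 181 of 186 LMPPs, 233 of 235 ALPs and 137 of 140 BLPs at equal depth. Flt3 changed little between gates, at 0.02 ± 0.08 on the log2 scale in ALP over LMPP (adjusted p = 0.960), −0.31 ± 0.08 in BLP over ALP (adjusted p = 0.300) and −0.29 ± 0.08 in BLP over LMPP (adjusted p = 0.0706). The last passed with limma-voom (adjusted p = 0.0254), with DESeq2 (0.0157) and with cells at equal counts (−0.43, adjusted p = 0.0170).

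Between genotypes, Flt3 was lower in null than in control mice in each population. In LMPPs it stood at 749.6 and 809 CPM in null mice and at 1005 and 1002 CPM in control mice. In ALPs it stood at 804 and 817 CPM in null mice and at 979 and 1019 CPM in control mice. In BLPs it stood at 584 and 651 CPM in null mice and at 885 and 817 CPM in control mice, and the genotypes did not overlap in any of the 3. On the log2 scale, null over control gave −0.36 ± 0.11 in LMPP (adjusted p = 0.681), −0.30 ± 0.11 in ALP (adjusted p = 1) and −0.46 ± 0.11 in BLP (adjusted p = 0.406) by edgeR, and none passed. None of the 6 members was called in null relative to control mice in LMPP, ALP or BLP, where 0%, 0.00502% and 0.01% of genes were called. At an unadjusted p under 0.05 those comparisons held 1345, 896 and 1757 genes. DESeq2 called Flt3 in BLP (adjusted p = 0.00948). With cells at equal counts the fold change in LMPP was −0.21. The same 2 mice per genotype gave all 3 populations, so the 3 comparisons are not independent. Over single cells the median Flt3 level, here in CPM of a cell's own gene counts, was 550 and 610 in null BLPs and 764 and 764 in control BLPs, 790 and 738 in null ALPs and 896 and 764 in control ALPs, and 731 and 797 in null LMPPs and 745 and 922 in control LMPPs. By these medians the genotypes overlapped in ALPs and LMPPs.

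Csf3r showed the opposite order in the later gates. Null ALPs held 3.44 times the control level (log2 fold change 1.78 ± 0.66, adjusted p = 1), with no overlap between mice. Null BLPs held 15.4 times the control level (3.94 ± 0.74, adjusted p = 0.287), and LMPPs gave −0.15 ± 0.64 (adjusted p = 1). The BLP value was called by DESeq2 (adjusted p = 1.54e-06) and without the filter on low counts (0.0129). It was 2.15 without null mouse 18219 and 1.56 with cells at equal counts, and 6 null BLPs and 1 control BLP had at least 10 Csf3r reads. The change of BLP over LMPP was −4.36 in null mice (adjusted p = 0.0350, and 0.0630 with the mouse as a replicate block) and −8.45 in control mice (adjusted p = 0.00519). Of the 6 members, Csf3r alone was called in BLP relative to LMPP in null mice (1.15% of all genes called), and Kit and Csf3r in control mice (0.945%). None was called in ALP relative to LMPP within null mice (0.211%) or within control mice (0.271%). The difference between genotypes was 4.09 ± 0.96 and did not pass (adjusted p = 0.706, with 0% of genes called and 1349 at an unadjusted p under 0.05). In ALP the share of cells with a Csf3r read was 13.5 points higher in null mice, and that of Kit 16.8 points higher, each without overlap (exact p = 0.333, the smallest that 2 mice against 2 allow). Kit levels in ALP gave 0.41 ± 0.36 (adjusted p = 1).

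Myeloid marker sums were also set beside these values. The summed level of 12 neutrophil and monocyte markers was 836 to 939 CPM in null ALPs and 255 to 437 in control ALPs, 409 to 473 in null BLPs and 82.1 to 187 in control BLPs, and 1126 to 1552 in null LMPPs and 601 to 686 in control LMPPs. Mpo, the myeloperoxidase of granules, gave most of it, with 788 ± 83.4 CPM in null ALPs and 302 ± 169 in control ALPs, and 271 ± 30.0 in null BLPs and 102 ± 49.9 in control BLPs (SD, n = 2 mice each). Ms4a3, which marks granulocyte-monocyte precursors, had no read in null BLPs, control ALPs, control BLPs or LMPPs of either genotype, and Elane, the neutrophil elastase gene, had none in null LMPPs, null BLPs or control ALPs. Of the 12 markers, 11 had reads in null ALPs and 9 in control ALPs, and 6 in null BLPs and 10 in control BLPs. Of the 8 that could be tested, 5 were higher and 3 lower in null than in control mice in ALP and again in BLP, with none called. In LMPPs the sum was higher in null mice while Csf3r was not. The sum of 7 macrophage markers was 39.4 to 81.5 CPM in null ALPs and 7.56 to 11.9 in control ALPs, 70.0 to 169 in null BLPs and 15.1 to 36.3 in control BLPs, and 79.9 to 130 in null LMPPs and 20.2 to 74.3 in control LMPPs. Adgre1, which marks mature macrophages, had no read in null ALPs, control ALPs or null BLPs. The markers' part in the Csf3r values was not tested. Ebf1, a factor of B lineage commitment, rose in null ALPs (log2 fold change 3.05 ± 0.26, adjusted p = 0.0260 by edgeR), the single gene called in that comparison. No gene was called there with limma-voom, without any 1 of the 4 mice, without the ALP libraries of mice 18219 and 18220 or with only the populations compared.

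Csf2ra and Csf2rb encode the chains of the GM-CSF receptor, the first binding GM-CSF alone and the second a signalling chain shared with the receptors for IL-3 and IL-5. Csf2ra (chromosome 19, 61223957 to 61228429, minus strand) stood at 59.4 and 45.5 CPM in null ALPs and 61.7 and 53.9 in control ALPs. In BLPs it stood at 35.8 and 47.9 CPM in null mice and at 76.7 and 24.6 in control mice. In LMPPs it stood at 22.8 and 34.1 CPM in null mice and at 59.1 and 70.5 in control mice, the one population in which the genotypes did not overlap. The LMPP difference was −1.19 ± 0.50 on the log2 scale (adjusted p = 0.736). Csf2ra was read in 14 of 45 and 15 of 47 null LMPPs and in 24 of 47 and 23 of 47 control LMPPs, 18.5 points lower in null mice (exact p = 0.333). Between gates it gave 0.36 ± 0.35 in ALP over LMPP (adjusted p = 0.773) and −0.26 ± 0.35 in BLP over ALP (adjusted p = 0.882). Its share of cells with a read was 40.8% ± 10.7 in LMPPs, 41.9% ± 9.36 in ALPs and 37.8% ± 11.3 in BLPs (SD, n = 4 mice), differences smaller than the spread between mice.

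Csf2rb (chromosome 15, 78325752 to 78353847, plus strand) was lowest in ALPs. It stood at 13.6 and 16.4 CPM in null ALPs and 27.1 and 31.6 in control ALPs. In BLPs it stood at 51.0 and 42.0 CPM in null mice and at 44.5 and 82.6 in control mice, above every ALP library. In LMPPs it stood at 34.0 and 23.0 CPM in null mice and at 67.3 and 63.7 in control mice. These levels rest on few cells. The highest 3 cells held 43.2% to 69.3% of Csf2rb reads in ALP libraries, 50.4% to 70.2% in BLP and 45.5% to 68.5% in LMPP libraries. The log2 fold change was −1.04 ± 0.26 in ALP over LMPP (adjusted p = 0.130) and 1.37 ± 0.26 in BLP over ALP (adjusted p = 0.196), and neither passed by edgeR, while DESeq2 called both (adjusted p = 0.00225 and 2.77e-05). The share of cells with a read was 12.8 points higher in BLP than in ALP, in 4 of 4 mice and with no overlap (exact p = 0.125). Null mice lay below control mice without overlap in LMPP, at −1.20 ± 0.37 (adjusted p = 0.698), and in ALP, at −0.97 ± 0.37 (adjusted p = 1), but not in BLP. Csf2rb shares 12.3% of its stretches of 50 bases with its neighbour paralog Csf2rb2, the mouse-specific IL-3 receptor beta chain, so reads from those stretches are uncertain. Csf2rb2 stood at 3.96 and 12.6 CPM in null ALPs and 5.10 and 19.9 in control ALPs, at 5.89 and 16.1 in null BLPs and 22.7 and 32.2 in control BLPs, and at 0.121 and 1.27 in null LMPPs and 9.45 and 0.166 in control LMPPs. Its change in BLP over LMPP was 3.25 ± 1.23 (adjusted p = 0.178).

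Csf1r (chromosome 18, 61100598 to 61132149, plus strand), the M-CSF receptor of monocytes and macrophages, was read in few cells. At equal depth it was found in 4 of 79 and 8 of 42 null ALPs and in 6 of 74 and 1 of 40 control ALPs. In BLPs it was found in 2 of 36 and 1 of 35 cells of null mice and in 3 of 34 and 1 of 35 cells of control mice. In LMPPs it was found in 0 of 45 and 3 of 47 cells of null mice and in 5 of 47 cells of each control mouse. The exact 95% interval for 0 of 45 reaches 7.87%, which covers counting error only. The highest 3 cells held 75.0% to 100% of Csf1r reads in every library, and levels ran between 0.0808 and 30.3 CPM. No comparison passed, and the SE of its fold changes was 1.32 to 1.93 between single groups or gates. Of its exon bases, 15.1% are overlapped by Hmgxb3 on the opposite strand, and the sources do not state whether the counting used strand. Reads in that stretch are therefore uncertain.

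Cells that carried several of the receptors made up a smaller share of the later gates than of LMPPs. Flt3 and Kit were both read in 169 of 186 LMPPs (90.9%), 144 of 235 ALPs (61.3%) and 76 of 140 BLPs (54.3%). Since nearly every cell held Flt3, these counts follow the Kit counts. At least 1 of the 4 colony-stimulating factor receptor genes was read in 80.6% of LMPPs, 64.3% of ALPs and 65.0% of BLPs. Over mice this share ran from 72.3% to 91.5% in LMPPs, 55.0% to 68.9% in ALPs and 51.4% to 82.4% in BLPs. LMPPs and BLPs thus overlapped, though within each mouse the BLP share was the lower. Flt3, Kit and at least 1 of those 4 were read in 137 LMPPs (73.7%), 96 ALPs (40.9%) and 52 BLPs (37.1%). By mouse, the triple share was 53.2% and 40.5% of null ALPs and 35.1% and 27.5% of control ALPs, and 71.1% and 57.4% of null LMPPs and 89.4% and 76.6% of control LMPPs. In BLPs it was 41.7% and 28.6% in null mice and 52.9% and 25.7% in control mice, with overlap. The order of the genotypes was thus opposite in ALPs and LMPPs, without overlap in either; this difference was not tested. The mean number of the 6 genes read per cell was 3.24 in LMPPs, 2.52 in ALPs and 2.39 in BLPs.

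**Figure D4:**
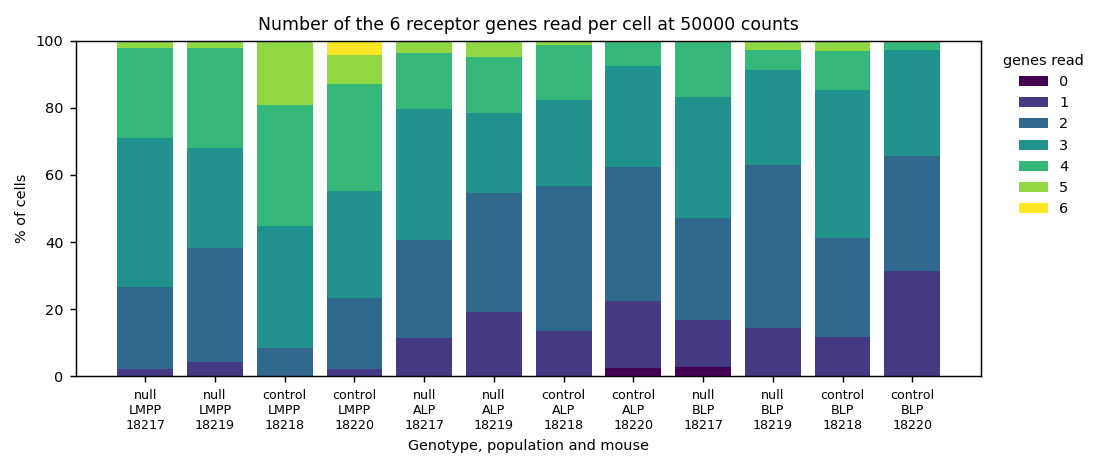
Share of cells in which 0 to 6 of the receptor genes were read at 50000 nuclear gene counts, 1 bar per mouse and population with null mice left of control mice. Bars for LMPP hold more cells with 4 or more genes than bars for ALP and BLP.

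The chains of the GM-CSF receptor, which act as a complex, were read together about as often as their shares gave. Csf2ra and Csf2rb were both read in 18 LMPPs, 24 ALPs and 16 BLPs, against 21.1, 23.0 and 18.3 from the product of the shares. Csf3r and Csf2rb were both read in 13 ALPs against 8.67, above the product in 4 of 4 mice, and in 34 LMPPs against 28.8, above it in 3 of 4 mice. Kit and Csf1r were both read in 15 ALPs against 11.8, also in 4 of 4 mice. Of 45 member pairs by gate, 3 were above the product in 4 of 4 mice, these and Csf3r with Csf2ra in LMPPs, and 0 were below it in all 4. Csf3r cells held Mpo more often than the product gave, in 97 LMPPs against 91.3, 40 ALPs against 35.1 and 9 BLPs against 7.07, above it in 4 of 4 mice in each population. In ALPs, Csf3r and Ebf1 were both read in 18 cells against 23.7, Csf2rb and Ebf1 in 19 against 25.1, and Csf3r and Siglech, a gene of plasmacytoid dendritic cells, in 6 against 10.4, each below the product in 4 of 4 mice. Of 126 pairs by gate of a member with another gene, 8 were above the product in all 4 mice and 5 below it, and those named were chosen after their values were seen. These counts are small and cells of 1 mouse share its library, so they stand as a description with no test. With either direction equally likely, 4 mice would agree, above or below, in a share of 0.125 of pairs. Ties with the product make this rarer. Both tallies include pairs with ties, which cannot reach 4 of 4 mice, so they cannot be set against that share. Whether agreement of 4 mice sets the named pairs apart was not tested.

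Over the 12 libraries, Kit and Csf3r went together (Pearson r = 0.81 on log2 CPM), followed by Csf1r and Csf2ra (0.73), and no other pair of members passed 0.53. Among 7441 genes of at least 20 CPM on average, those most like Kit were Pygl (0.96), a glycogen phosphorylase, Vldlr (0.95), a lipoprotein receptor, and Lmo2 (0.93), a partner of haematopoietic transcription factors. Those most like Csf3r were Gcnt2 (0.96), Adgrl4 (0.96) and Tmem205 (0.96). Those most like Flt3 were Cutc (0.91), Rit1 (0.89) and Nme4 (0.88). Csf1r was nearest to Casd1 (0.91), Csf2ra to Phkg2 (0.86) and Csf2rb to Zscan26 (0.89). The libraries share mice and gates, so these coefficients describe the 12 libraries and carry no test.

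Of 6 ligand genes for these receptors, 5 (Flt3l, Kitl, Il34, Csf2 and Csf3) were too low to test, and Csf1 was not called in any comparison. Of 13 related receptors, 10 were tested. Il7r rose in ALP (log2 fold change 6.14 ± 0.25, adjusted p = 2.26e-05) and in BLP relative to LMPP, as its protein was sorted for. Il6st, the chain shared by the IL-6 receptor family, rose in BLP relative to LMPP (2.11 ± 0.49, adjusted p = 0.0471) with 80.8 ± 13.2 CPM in null BLPs and 94.4 ± 3.96 in control BLPs, against 14.4 ± 8.19 in null LMPPs and 28.4 ± 27.1 in control LMPPs (SD, n = 2 mice each). The list's median was −0.23, beside −0.01 over all genes.

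Downstream of the receptors, 1 of 20 signalling genes was called in BLP relative to LMPP, a share near the 4.71% of all genes called there. It was Pik3cd, a catalytic subunit of PI3 kinase, which rose (1.72 ± 0.19, adjusted p = 0.00283), with 232 ± 50.9 CPM in null BLPs and 292 ± 28.5 in control BLPs, against 81.9 ± 0.226 in null LMPPs and 75.9 ± 3.84 in control LMPPs. Of 12 feedback inhibitors, 1 was called in ALP and 2 in BLP, each relative to LMPP, where 1.09% and 4.71% of all genes were called. Inpp5d, the inositol phosphatase SHIP, rose in ALP (0.81 ± 0.15, adjusted p = 0.0494) and in BLP (1.31 ± 0.15, adjusted p = 0.00338), each relative to LMPP. Socs2, which limits cytokine receptor signalling, rose in BLP relative to LMPP (4.20 ± 0.73, adjusted p = 0.0159). In that comparison 9 feedback inhibitors were higher and 3 lower, with a median of 0.98 beside −0.01 over all genes. Between genotypes no gene of the ligand, related receptor, signalling or feedback lists was called in any population.

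Of 16 tested transcription factors of stem, multipotent and committed progenitors, 5 rose and 4 fell in BLP relative to LMPP, where 4.71% of all genes were called. Those that rose were Ebf1 (8.14 ± 0.23, adjusted p = 1.59e-06), Pax5, Myb, Irf8 and Ikzf1. Those that fell were Lmo2 (−2.98 ± 0.14, adjusted p = 6.11e-05), Hoxa9 (−1.54 ± 0.28, adjusted p = 0.0198), Spi1, which encodes PU.1 (−0.91 ± 0.18, adjusted p = 0.0237), and Gata2 (−8.90 ± 1.93, adjusted p = 0.0370). In ALP relative to LMPP (1.09% of all genes called), Ebf1, Pax5 and Myb rose and Lmo2 fell (−2.42 ± 0.14, adjusted p = 0.000206). In BLP relative to ALP, Ebf1 was the one factor called (2.04 ± 0.18, adjusted p = 0.0189). Spi1 stood at 160 ± 23.8 CPM in null BLPs and 185 ± 20.0 in control BLPs, against 292 ± 102 in null LMPPs and 359 ± 42.8 in control LMPPs (SD, n = 2 mice each).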

How the data were processed

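Full-length single-cell RNA-seq (Smart-seq2) was done on sorted cells of 4 mice, per the labels' protocols. The authors deposited raw whole-number read counts per gene and cell, and the submitters' processing notes name GSNAP, HTSeq 0.5.3p3 and mm10. No source used here states the annotation release or the strand setting. Counts are of reads, since the protocol has no molecular identifiers. Genes took 43.2% of entries, 92 spike-in RNAs 6.13% and 5 summary entries 50.7%. Neither of these entered a library size or a test.

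Cells with at least 50000 nuclear counts and 1000 nuclear genes, at most 20% mitochondrial and at most 50% spike-in counts were kept. Their counts were summed per mouse and population. edgeR 4.0.16 (TMM, quasi-likelihood, 6 groups, 6 residual degrees of freedom, R 4.3.3) tested 19903 genes, with Benjamini-Hochberg adjustment over all of them and a threshold of 0.05. The common biological coefficient of variation was 86.9%. SEs are approximate, from the fold change and the F statistic. Gate contrasts average both genotypes. Each mouse gave all 3 populations, so the mouse pairs the gates; deviations of libraries of the same mouse correlated by 0.0295 to 0.0507 across genes. Shares of cells used cells thinned to 50000 counts (1 read is 20 CPM), a permutation test over mice (exact, two-sided) and exact binomial intervals. Alternatives used DESeq2 1.42.0 and limma 3.58.1 (voom). Fits were tested on simulated data. Symbols, exon lengths and coordinates came from GENCODE M21 (GRCm38) and promoters from RefSeq.

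The 6 genes, the lists and the alternatives were chosen with earlier results of these data known. Of each list the genes past the threshold are named, otherwise up to 2 with the smallest p; for likeness the 3 genes with the highest r, leaving out predicted genes.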

Additional observations from a re-analysis of the deposited data

Results flagged for a closer look

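Sets of 4 mice (6 genes, 3 populations, level and share of cells) each held both genotypes. In 5 of 36 such sets, 1 mouse stood far from the other 3. Independent sets of like mice would give this by chance in about 1 in 20. These sets mix genotypes and share cells, so their count was not tested against that rate. The Kit level in ALPs was 61.9 CPM in control mouse 18218, against 128 to 137 CPM in the other 3 mice. The Csf3r level in BLPs was 11.0 CPM in null mouse 18219, where 1 cell held 75.5% of the reads, against 0.368 to 1.87 CPM in the others. The share of cells with a Csf2rb read in control mouse 18218 was 28.4% in ALPs and 47.1% in BLPs, the highest in both gates. The share of BLPs with a Flt3 read was 100% in control mouse 18218, above the 97.1% to 97.2% of the others, each of which missed 1 cell.

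At 50000 counts per cell, 10 measures were examined over 3 pairs of populations each. In 5 of these measures null and control mice did not overlap and stood in opposite order in ALPs and LMPPs. These differences were not tested. With 2 mice against 2, the smallest exact permutation p of a single comparison is 0.333. Groups without a difference thus fail to overlap in about that share of single comparisons. Doing so in both populations of a pair and in opposite order is rarer, and no rate was worked out for that. The share of cells with a Kit read was 16.8 points higher in null than in control ALPs and 4.40 points lower in null than in control LMPPs (null minus control, −4.40). At 200000 counts these were 20.1 and −2.15 points, again without overlap. For Flt3 the same differences were 1.93 points in ALPs and −5.37 points in LMPPs, but at 200000 counts 0 and −1.06 points, with overlap in both. For Flt3 and Kit read in the same cell they were 17.5 points in ALPs and −9.76 points in LMPPs, and with any colony-stimulating factor receptor as well 15.5 and −18.7 points. The mean number of the 6 genes read per cell was 2.62 in null ALPs and 2.34 in control ALPs, a difference of 0.279, and 2.97 in null LMPPs and 3.51 in control LMPPs, a difference of −0.542. These measures share their cells and are not independent of each other.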

How the results depend on the processing

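Of the 6 members, the number called in ALP relative to LMPP (2 as reported) was 0 to 0 when 1 mouse was left out, 1 with the mouse as a replicate block and 1 when the ALP libraries of mice 18219 and 18220 were left out. In BLP relative to LMPP (2 as reported) it was 0 to 1 with 1 mouse left out. DESeq2 called 3 in BLP relative to ALP, 2 in null relative to control BLPs and 1 for genotype by population (0 as reported each); without the filter on low counts, 1 was called in BLP relative to ALP and 1 in null relative to control BLPs. The replicate block ended 2 further calls, both within a genotype: Kit in BLP relative to LMPP in control mice (−2.11, adjusted p = 0.0784) and Csf3r in null mice (−4.66, adjusted p = 0.0630). RLE size factors and all cells kept left the numbers of members called as reported; limma-voom, DESeq2 and equal counts each called 3 in BLP relative to LMPP, and DESeq2 3 in ALP relative to LMPP. The genes called over all, 217 in ALP relative to LMPP, 8 in BLP relative to ALP and 938 in BLP relative to LMPP, were 1503, 748 and 3347 with DESeq2, 587, 75 and 1602 without the filter, 522, 20 and 1526 at equal counts, 15 to 27, 0 and 69 to 132 with 1 mouse left out, and 42, 1 and 466 without those ALP libraries. The block gave 0 in BLP relative to ALP. For null relative to control in LMPP, ALP and BLP (0, 1 and 2), DESeq2 called 495, 271 and 800 the unfiltered fit 8, 6 and 11 and equal counts 1, 4 and 2, while limma-voom, any 1 mouse left out, those ALP libraries left out and only the populations compared gave 0, 0 and 0. The change of sign for Csf3r in genotype by population, BLP minus ALP, came at equal counts (−0.11, against 2.16). Differences in shares of cells changed sign for Flt3 with at least 10 reads (−1.12 points in ALP against LMPP, 1.47 in BLP against ALP) and at 200000 counts (−0.18 in BLP against LMPP), for Csf2ra in ALP against LMPP (−0.043 at 200000 counts, −0.046 with 10 reads, −6.89 without thinning), and without thinning for Kit (3.24) and Csf2ra (3.27) in BLP against ALP and Csf1r (−3.49) in ALP against LMPP. The cause was not tested in any of these. With 1 mouse left out, the remaining lone mouse of a genotype is assumed to vary like the other groups. At 50000 counts, levels under 20 CPM per cell are often not read.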
